A study of Mus musculus with 6 samples.

Results

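The 10 genes described here encode the enzymes that make, lengthen and desaturate fatty acids in the liver and start their storage as glycerolipid. They are Fasn, Acaca, Acacb, Acly, Acss2, Me1, Scd1, Scd2, Elovl6 and Gpam, chosen by name. Each was read from its brightest probe among the probes annotated to exactly 1 symbol, by the mean over the 6 arrays. All 10 were measured and all 10 passed the signal minimum, a mean log2 signal of 5, among 10977 tested genes of 19938 with such a probe. Scd2 had the lowest mean, 6.27, and Acaca and Me1 each had 2 probes.

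The series compared livers of C57Bl6/J pups, labelled as 1 day old, by the oil in the diet of their mothers. All 3 diets were isocaloric with 6 g% of oil: soybean oil for Control, flaxseed oil for ALA (31.6% alpha-linolenic acid) and coconut oil for SFA (48.51% saturated fatty acids). The labels name no deletion or transgene, give the breeders' age as 4 to 5 weeks, and put the males on chow outside mating. Each diet has 2 Affymetrix arrays, replicates 1 and 2, and each array carries RNA pooled from 3 livers, so the spread between single pups was not measured. Whether the duplicate pools hold different pups is not in the labels. The Y-linked gene Eif2s3y was at a log2 signal of 3.63 and 7.95 on the Control arrays, so those 2 pools did not hold the same RNA. For ALA and SFA the spread between duplicates may be technical. The p-values measure only the spread between these arrays.

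Fatty acid synthesis starts from cytosolic acetyl-CoA, which ATP citrate lyase makes from citrate and acetyl-CoA synthetase makes from acetate. The acetyl-CoA carboxylases turn it into malonyl-CoA, and fatty acid synthase builds palmitate from it with reducing power (NADPH) that comes in part from malic enzyme. The elongase Elovl6 lengthens palmitate, the stearoyl-CoA desaturases insert a double bond, and the acyltransferase Gpam joins an acyl chain to glycerol phosphate. In adult rodent liver these genes are known as targets of the transcription factors encoded by Srebf1 and Mlxipl, and to be less expressed when the animal itself eats polyunsaturated fat.

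The libraries differ in more than diet. Across the tested genes, which are no independent replicates, the duplicates had r = 0.977 (Control), 0.978 (ALA) and 0.986 (SFA). Pairs from unlike diets had r between 0.927 and 0.964. The 9 measured hepatocyte markers were all above the signal minimum, and their summed linear signal was 38899 and 40130 on Control, 42787 and 41980 on ALA, and 39101 and 38200 on SFA arrays. The X-inactivation RNA Xist was at a log2 signal of 10.67 and 8.34 on Control, 3.76 and 4.24 on ALA, and 9.46 and 9.51 on SFA arrays, and the Y-linked gene Eif2s3y at 3.63 and 7.95, 7.74 and 7.80, and 4.11 and 3.79. The sex-linked signals thus differed between diets and between the Control arrays, and the labels give no sex. Markers of dividing cells summed to 235 and 252 on Control, 584 and 1497 on ALA, and 1706 and 1628 on SFA arrays. Of 9 measured markers 6 were called higher in each diet's comparison with Control, where 5.11% (ALA) and 6.62% (SFA) of all tested genes were. Among the called markers Mki67, Top2a, Ccna2 and Plk1 were below the signal minimum of 5 on both Control arrays. They passed it only through the other arrays. A further 2, Bub1 and Cenpe, were below the minimum in their mean. Between ALA and SFA arrays the sex-linked signals split fully with diet, so sex-linked signal and diet cannot be told apart there. The part of the sex-linked signals and of dividing cells in the results below was not tested.

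Promoter windows of Acss2, Me1 and Gpam are shown here for the letters around their starts. RefSeq windows on GRCm38.p6, from 250 bases before a start to 50 after it, were listed for 8 of the 10 genes, and Scd1 and Scd2 had none in that table. Acss2 lies on chromosome 2, Elovl6 on 3, Acacb on 5, Me1 on 9, Fasn, Acaca and Acly on 11, and Scd1, Scd2 and Gpam on 19. Scd2 spans chr19:44293676-44306864 and Scd1 spans chr19:44394450-44407709. Acss2 and Me1 are shown because they were called below, and Gpam because its window holds the sterol element core. Capitals mark matches, on either strand, to the E-box CACGTG, the CCAAT box CCAAT, the GC box GGGCGG and the sterol element core CACNCCAC, and no matches overlap in these windows.
Acss2, chr2:155517793-155518092, plus strand: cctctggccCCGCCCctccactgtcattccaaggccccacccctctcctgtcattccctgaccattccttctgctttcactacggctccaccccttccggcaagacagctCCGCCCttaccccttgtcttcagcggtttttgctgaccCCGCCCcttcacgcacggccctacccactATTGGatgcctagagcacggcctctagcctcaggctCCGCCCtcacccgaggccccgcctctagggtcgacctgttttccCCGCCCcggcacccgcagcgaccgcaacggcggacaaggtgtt
Me1, chr9:86695865-86696164, minus strand: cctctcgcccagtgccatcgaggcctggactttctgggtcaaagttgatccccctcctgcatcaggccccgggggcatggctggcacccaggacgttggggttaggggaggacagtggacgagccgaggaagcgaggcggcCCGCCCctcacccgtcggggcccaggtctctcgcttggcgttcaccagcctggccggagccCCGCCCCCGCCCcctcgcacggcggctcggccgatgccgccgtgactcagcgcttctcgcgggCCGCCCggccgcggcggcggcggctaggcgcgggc
Gpam, chr19:55127189-55127488, minus strand: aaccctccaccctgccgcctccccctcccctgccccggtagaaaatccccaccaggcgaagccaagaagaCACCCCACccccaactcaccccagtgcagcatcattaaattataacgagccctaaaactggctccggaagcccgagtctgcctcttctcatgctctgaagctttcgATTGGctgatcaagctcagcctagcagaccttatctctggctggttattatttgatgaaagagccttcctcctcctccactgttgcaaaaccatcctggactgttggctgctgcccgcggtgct

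A match to the CCAAT box was found in a window of 6 of the 8 genes, where 41.1% of all genes with a window have one. The GC box was found in 4 of 8 (38.2% of all genes) and the sterol element core in 1 of 8, Gpam (7.12%). The E-box was found in 0 of 8 (8.09%). The Acss2 window holds 5 GC boxes and 1 CCAAT box, and the Me1 window holds 4 GC boxes. Me1 and Gpam each have a second listed window, not shown, and these add the CCAAT box of Me1 and the GC box of Gpam to the counts. These matches describe the letters of the windows and say nothing of binding.

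**Figure D1:**
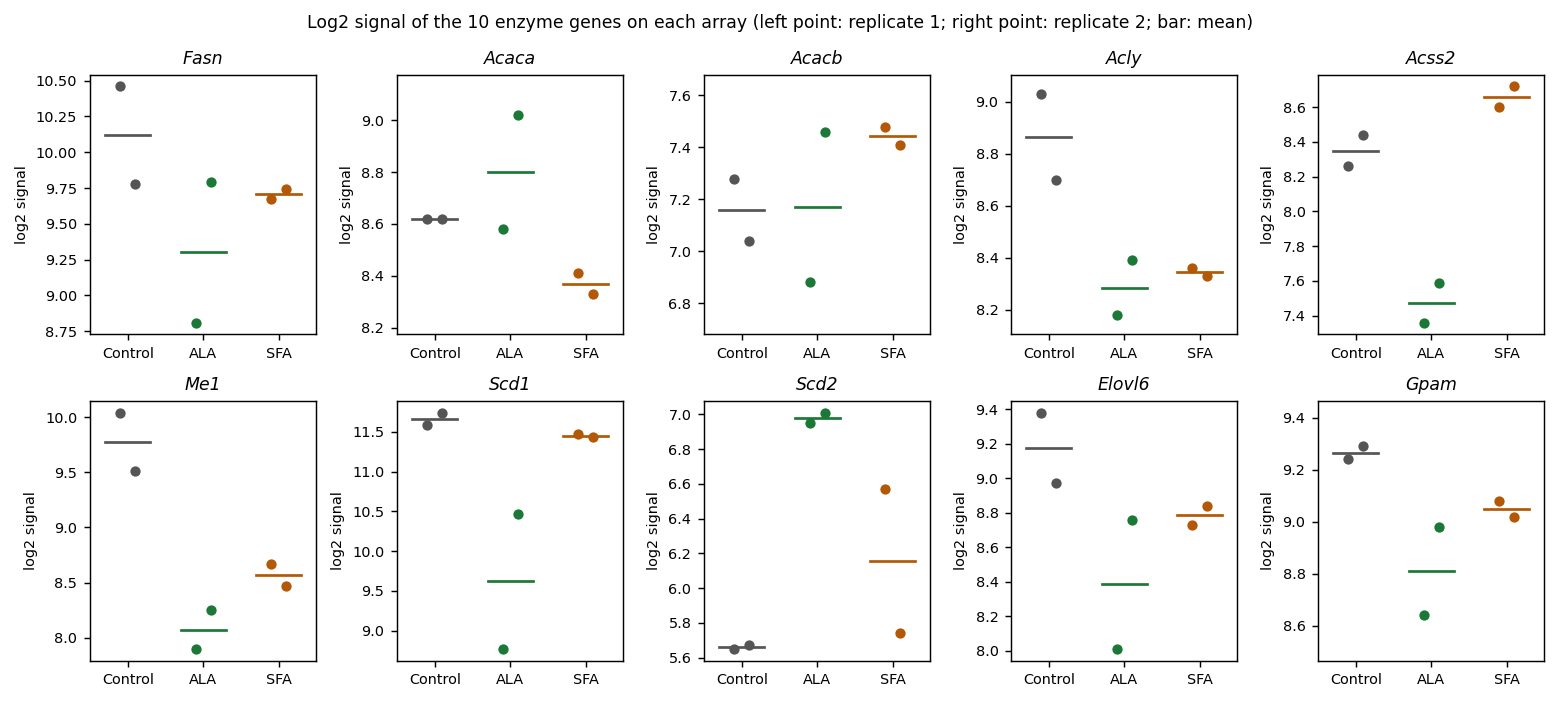
Log2 signal (y axis, own scale in each panel) of the 10 enzyme genes by maternal diet (x axis), with 1 point per array and a bar at the mean of the 2 arrays. ALA points are clear of both Control points for Acly, Acss2, Me1, Scd1, Scd2, Elovl6 and Gpam, as for 55.0% of all tested genes. The ALA points are far apart from each other for Scd1 (8.77 and 10.47) and Fasn (8.81 and 9.79).

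Of the 10 genes, 4 changed between ALA and Control livers: Me1, Scd1 and Acss2 fell and Scd2 rose (limma, Benjamini-Hochberg adjusted p below 0.05 over all tested genes). In this comparison 7.93% of all tested genes were called. By direction, 3 of 10 members fell where 2.82% of all tested genes did, and 1 of 10 rose where 5.11% did. The members' median log2 difference was -0.68, against -0.01 over all tested genes, and it was -0.37 without ALA replicate 1. ALA and Control arrays were fully apart for 7 of 10 members, 6 lower and 1 higher. The same held for 55.0% of all tested genes, 28.0% lower and 27.0% higher. Over the 3 diets together, the moderated F test called the same 4 members, where it called 13.5% of all tested genes.

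On the SFA diet 1 of 10 members changed against Control, Me1, where 13.8% of all tested genes were called. By direction, 1 of 10 members fell where 7.15% of all tested genes fell, and 0 rose where 6.62% rose, so the members' count lay near the background. The median log2 difference of the members was -0.23, against -0.05 over all tested genes. With each array centred on its median these were -0.08 and 0.10, a shift of 0.15 that left every member's sign and call on SFA as it was. SFA and Control arrays were fully apart for all 10 members, 7 lower and 3 higher, and for 64.2% of all tested genes, 35.7% lower and 28.6% higher. Between ALA and SFA 1 of 10 members was called, Acss2, with 1.53% of all tested genes called, 0.437% lower and 1.09% higher. These arrays were fully apart for 6 of 10 members, 4 lower and 2 higher, and for 55.8% of all tested genes, 24.4% lower and 31.4% higher. The median was -0.34 there, against 0.04 over all genes, and it was 0.00 without ALA replicate 1 and -0.62 without ALA replicate 2. Centring made the first values -0.47 and -0.10. The comparisons with Control share the Control arrays, and every pair of the 3 comparisons shares a group.

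**Figure D2:**
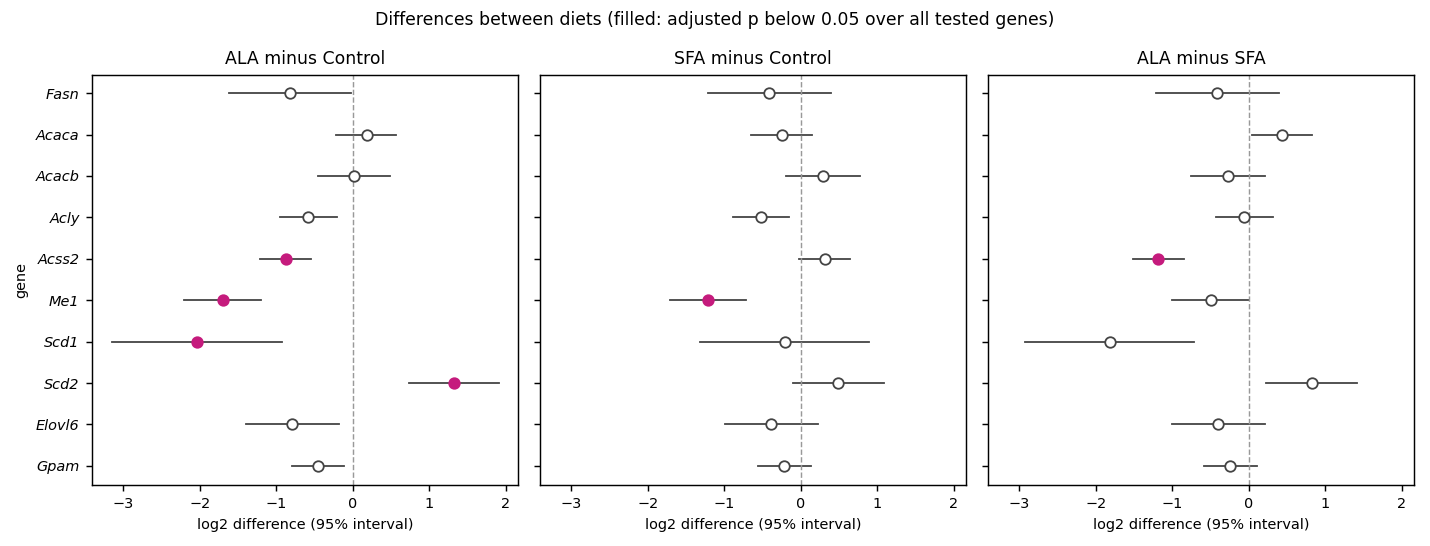
Log2 difference (x axis) of each gene (y axis) in the 3 comparisons, with 95% intervals from the limma fit and filled points where the adjusted p was below 0.05. Filled points are Acss2, Me1, Scd1 and Scd2 for ALA minus Control, Me1 for SFA minus Control and Acss2 for ALA minus SFA.

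Among the enzymes that supply acetyl-CoA, Acss2 was low on ALA and Acly was lower on both ALA and SFA without passing the test. The log2 signal of Acss2, the acetate-using synthetase, was 8.26 and 8.44 on Control, 7.36 and 7.59 on ALA, and 8.60 and 8.72 on SFA arrays. Both ALA arrays lay below all 4 others, and the SFA arrays lay above both Control arrays. Acss2 fell by 0.87 on the log2 scale from Control to ALA, a 1.83-fold difference (SE 0.14, adjusted p = 0.0165, limma, n = 2 arrays per group). This call did not hold without Control replicate 2 (-0.78, adjusted p = 0.0877) or without ALA replicate 1 (-0.76, adjusted p = 0.0615). Between ALA and SFA the difference was -1.18 (SE 0.14, adjusted p = 0.0348), and the adjusted p was 0.0538 to 0.191 when any 1 of the 6 arrays was left out. With the replicate number as a block it was 0.0588, and with only those 2 groups fitted 0.057. SFA and Control differed by 0.31 (95% interval -0.02 to 0.64), which did not pass.

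Acly, the citrate-using lyase, had a log2 signal of 9.03 and 8.70 on Control, 8.18 and 8.39 on ALA, and 8.36 and 8.33 on SFA arrays. All 4 ALA and SFA arrays lay below both Control arrays. Its difference from Control was -0.58 on ALA (SE 0.16, adjusted p = 0.0699) and -0.52 on SFA (SE 0.16, adjusted p = 0.0711), and neither passed. With a trended, robust variance both passed, at adjusted p = 0.0337 and 0.038, and with a signal minimum of 6 the ALA difference passed, at 0.0492, and the SFA difference did not, at 0.0548.

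Me1, the cytosolic malic enzyme gene, was the member that passed the test on both ALA and SFA. Its log2 signal was 10.04 and 9.51 on Control, 7.90 and 8.25 on ALA, and 8.67 and 8.47 on SFA arrays. The 3 groups did not overlap, in the order Control, SFA, ALA. Me1 fell by 1.70 from Control to ALA (3.26-fold, SE 0.21, adjusted p = 0.00737) and was called without any 1 of the 6 arrays, at adjusted p from 0.0162 to 0.0401. From Control to SFA it fell by 1.21 (2.31-fold, SE 0.21, adjusted p = 0.0161). It no longer passed without Control replicate 1 (-0.94, adjusted p = 0.0562), without SFA replicate 1 (-1.31, adjusted p = 0.0664) and without SFA replicate 2 (-1.10, adjusted p = 0.0909). The neighbours ALA and SFA differed by -0.50 (95% interval -1.0 to 0.0, adjusted p = 0.226), which did not pass. The other probe of Me1 gave -1.74 on ALA and -1.10 on SFA, with adjusted p = 0.0097 and 0.029 over 12079 probes.

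The carboxylase and synthase genes did not pass in any comparison. Acaca, the cytosolic acetyl-CoA carboxylase of lipogenesis, was at 8.62 on both Control arrays, at 8.58 and 9.02 on ALA, and at 8.41 and 8.33 on SFA arrays. Its ALA arrays spanned the Control value and its SFA arrays lay below it. The log2 differences from Control were 0.18 on ALA (SE 0.17) and -0.25 on SFA (SE 0.17), with adjusted p = 0.57 and 0.338. Its other probe gave -0.23 on ALA and -0.81 on SFA, with adjusted p = 0.606 and 0.0654, so the probes differ in sign on ALA and in size on SFA.

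Acacb, the carboxylase linked to the mitochondrion, whose malonyl-CoA is known to restrain fatty acid oxidation, was at 7.28 and 7.04 on Control, 6.88 and 7.46 on ALA, and 7.48 and 7.41 on SFA arrays. The ALA arrays fell on either side of the Control arrays. Its difference from Control was 0.01 on ALA (95% interval -0.46 to 0.49) and 0.29 on SFA (95% interval -0.19 to 0.77).

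Fasn, the fatty acid synthase gene, was at 10.46 and 9.78 on Control, 8.81 and 9.79 on ALA, and 9.67 and 9.74 on SFA arrays. ALA replicate 1 was lowest and Control replicate 1 highest, and ALA replicate 2 lay within the Control range. The ALA minus Control difference was -0.82 (SE 0.34, 95% interval -1.62 to -0.02, adjusted p = 0.192), and -0.33 without ALA replicate 1. The SFA minus Control difference was -0.41 (SE 0.34, adjusted p = 0.443), and -0.07 without Control replicate 1. Neither passed, and the 95% interval of the SFA difference ran from -1.21 to 0.39.

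The desaturase genes Scd1 and Scd2 moved in opposite directions on ALA. Scd1, the main stearoyl-CoA desaturase gene of adult mouse liver, had a log2 signal of 11.58 and 11.74 on Control, 8.77 and 10.47 on ALA, and 11.47 and 11.43 on SFA arrays. Both ALA arrays were below all 4 others but were 1.70 apart, the widest gap between duplicates among the 10 members. Scd1 fell by 2.04 from Control to ALA (4.11-fold, SE 0.47, adjusted p = 0.0459). The difference was -1.19 without ALA replicate 1 and -2.89 without ALA replicate 2. The call is close to the threshold. It did not hold without Control replicate 1 (adjusted p = 0.141), without Control replicate 2 (0.172) and without either SFA replicate (0.0841 each). It was also lost with no signal minimum (0.0527), quantile normalization (0.0532), cyclic loess (0.0509), a trended, robust variance (0.176) and only the 2 groups fitted (0.0841). Scd1 on SFA was at -0.21 against Control (95% interval -1.32 to 0.89, adjusted p = 0.781). The ALA minus SFA difference was -1.82 (SE 0.47, adjusted p = 0.0957), which did not pass. Without ALA replicate 1 it was -0.97 (adjusted p = 0.094), and without ALA replicate 2 it was -2.68 and passed (adjusted p = 0.0168).

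Scd2, the desaturase isoform known in mice from brain and from liver before weaning, was at 5.65 and 5.67 on Control, 6.95 and 7.01 on ALA, and 6.57 and 5.74 on SFA arrays. The ALA arrays lay above all 4 others, and SFA replicate 2 lay next to Control. Scd2 rose by 1.32 from Control to ALA (2.49-fold, SE 0.25, adjusted p = 0.0263). The difference was 1.29 to 1.35 whichever array was left out, but the gene no longer passed without Control replicate 1 (adjusted p = 0.099), Control replicate 2 (0.115), ALA replicate 1 (0.0933) or ALA replicate 2 (0.118). On SFA it was at 0.49 (SE 0.25, adjusted p = 0.223). Without SFA replicate 1 that difference was 0.08 (adjusted p = 0.801), and without SFA replicate 2 it was 0.91 and passed (adjusted p = 0.0457). The ALA minus SFA difference was 0.82 (SE 0.25, adjusted p = 0.126) and did not pass. The paralogs Scd3 and Scd4 were below the signal minimum, between 3.44 and 4.18 on all 6 arrays. Whether signal is shared between the probes of the family was not tested.

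Markers of other cell types moved in the same comparison as Scd2. All 10 macrophage and Kupffer cell markers rose on ALA, and their summed linear signal was 1924 to 2166 on Control, 4138 to 5447 on ALA and 3892 to 4056 on SFA arrays. Of 10 endothelial markers 7 rose on ALA (summed signal 1458 to 2247, 3827 to 4348, and 3193 to 3225), and of 10 stellate cell and fibroblast markers 7 rose (1557 to 2262, 3858 to 3917, and 3731 to 3832). Of 6 measured adipocyte markers 1 rose on ALA, Fabp4, which endothelium also expresses, and Adipoq, Plin1, Lep and Retn were below the signal minimum. The adipocyte sum was 154 to 182 on Control, 335 to 384 on ALA and 360 to 413 on SFA arrays, and it moved mainly through Fabp4. Fabp4 was at a log2 signal of 5.99 and 5.39 on Control, 8.05 and 7.70 on ALA, and 8.17 and 7.96 on SFA arrays. Cidec, the other adipocyte marker above the minimum, was not called. Of 6 measured erythroid markers 1 rose on ALA, Slc4a1, with a sum of 225 to 502 on Control, 575 to 720 on ALA and 782 to 830 on SFA arrays. The called markers Slc4a1 (4.66 and 4.84) and Des (4.66 and 4.76) were below the signal minimum of 5 on the Control arrays. They passed it only through the other arrays. On SFA 7 macrophage, 7 endothelial and 9 stellate markers rose, with 1 adipocyte and 1 erythroid marker. Of all tested genes 5.11% rose on ALA and 6.62% on SFA. The part of these cells in the results for the 10 enzymes was not tested. In whole liver RNA, more cells of a type and more RNA per cell cannot be told apart.

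The genes that act after synthesis, Elovl6 and Gpam, did not pass in any comparison. Elovl6, the palmitate elongase gene, was at 9.38 and 8.97 on Control, 8.01 and 8.76 on ALA, and 8.73 and 8.84 on SFA arrays. All 4 ALA and SFA arrays lay below both Control arrays, and ALA replicate 2 lay between the SFA arrays. Its differences from Control were -0.79 on ALA (SE 0.26, adjusted p = 0.112) and -0.39 on SFA (SE 0.26, adjusted p = 0.339). On ALA the difference was -0.41 without ALA replicate 1.

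Gpam, the mitochondrial glycerol phosphate acyltransferase gene, was at 9.24 and 9.29 on Control, 8.64 and 8.98 on ALA, and 9.08 and 9.02 on SFA arrays. The 3 groups did not overlap, in the order Control, SFA, ALA. Its differences from Control were -0.45 on ALA (SE 0.15, adjusted p = 0.112) and -0.22 on SFA (SE 0.15, adjusted p = 0.356), and the ALA value was -0.28 without ALA replicate 1.

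Of the 10 members, 6 had their group means in the order Control, SFA, ALA: Fasn, Acly, Me1, Scd1, Elovl6 and Gpam. How many of all tested genes had that order was not counted. In that order Control and SFA differed for Me1 alone among the 6, and SFA and ALA for none of the 6 (limma, adjusted p from 0.0957 to 0.85). Each of the other members had an order of its own. It was SFA, Control, ALA for Acss2 and ALA, SFA, Control for Scd2, where neither pair of neighbours differed (adjusted p = 0.126 and 0.223). It was ALA, Control, SFA for Acaca and SFA, ALA, Control for Acacb, and no pair of neighbours of these carboxylase genes passed the test, though the SFA and Control arrays of Acaca were fully apart.

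The ALA duplicates differed in a common direction. All 10 members were higher on ALA replicate 2 than on ALA replicate 1, by a median of 0.40, while 44.0% of all tested genes were higher there and their median difference was -0.04. The gap was 1.70 for Scd1, 0.98 for Fasn, 0.75 for Elovl6 and 0.58 for Acacb, and 0.06 for Scd2. On Control 5 of 10 members were higher on replicate 2, with a median of -0.12, and on SFA 3 of 10, with a median of -0.05. Without regard to sign, the members' median gap was 0.21 on Control, 0.40 on ALA and 0.08 on SFA. Over all tested genes it was 0.15, 0.17 and 0.13, also widest on ALA. The dividing-cell sum also differed between the ALA arrays (584 and 1497), and its part in the gap was not tested.

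**Figure D3:**
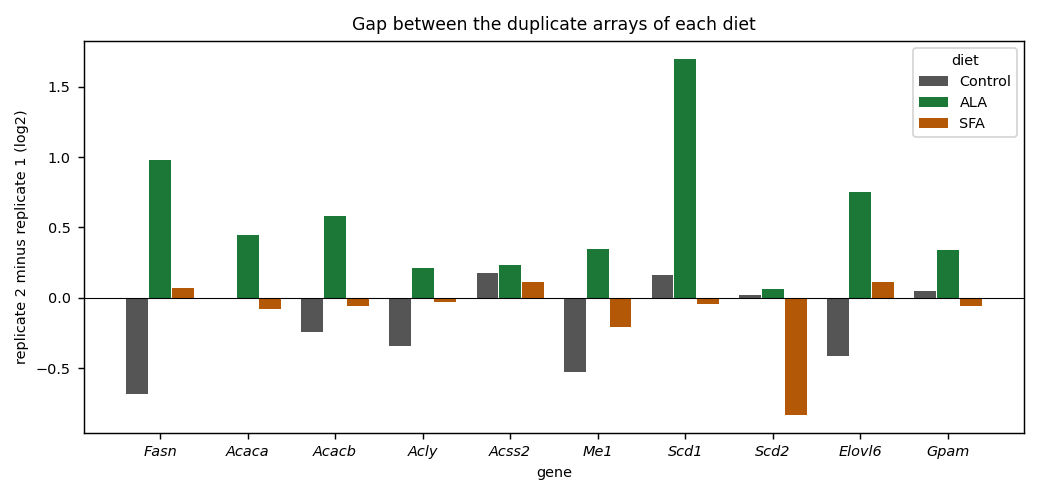
Log2 signal of replicate 2 minus replicate 1 (y axis) for each gene (x axis), with 1 bar per diet. All 10 ALA bars point up, from 0.06 for Scd2 to 1.70 for Scd1, whereas the Control and SFA bars point both ways.

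The genes most like 3 of the members were ranked by the root-mean-square difference of mean-centred log2 signals over the 6 arrays, which share 3 diets. For Fasn the nearest of all tested genes was a fellow member, Elovl6, at 0.10. Outside the members they were the small nucleolar RNA gene Snora16a at 0.17, the phosphatidylcholine transfer protein gene Pctp at 0.21 and the peroxisomal enzyme gene Ehhadh at 0.21. For Scd1 they were the isomerase gene Idi1 at 0.18, the sterol demethylase gene Cyp51 at 0.24 and the sterol dehydrogenase gene Nsdhl at 0.30. Cyp51 was at 8.42 and 8.96 on Control, 5.60 and 7.99 on ALA, and 8.64 and 8.62 on SFA arrays. Like Scd1, it was lowest on ALA replicate 1 and next lowest on ALA replicate 2. The nearest member to Scd1 was Acss2, at 0.64, which ranked 26 among all tested genes. For Scd2 they were the endocytic adaptor gene Hip1 at 0.21, the adhesion adaptor gene Sorbs3 at 0.22 and Arhgef37 at 0.22, after 2 nearer gene models without a common name, which were passed over (Gm5150 and Gm826). The nearest member to Scd2 was Acaca, at 0.53, which ranked only 2188 among all tested genes.

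**Figure D4:**
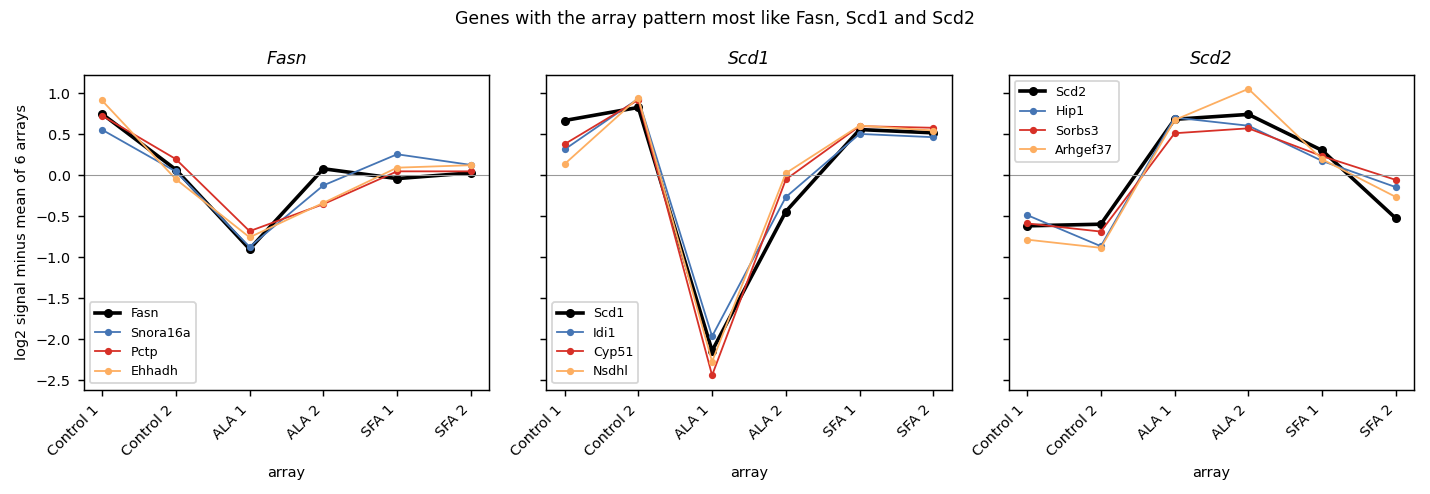
Log2 signal minus the mean of the 6 arrays (y axis) on each array (x axis) for Fasn, Scd1 and Scd2 (black) and the 3 non-member genes with a common name most like each (colours). The Scd1 panel dips on ALA replicate 1, and the Scd2 panel is high on both ALA arrays.

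Genes that supply the pathway were mixed. Of 11 tested genes of acetyl-CoA, citrate and NADPH supply, 1 rose and 2 fell on ALA, with a median of -0.08, and 2 rose and 1 fell on SFA, with a median of 0.03. Slc25a1, the mitochondrial citrate carrier gene, had a mean of 10.09 on Control, 9.51 on ALA and 10.01 on SFA arrays. It fell by 0.59 on ALA (SE 0.13, adjusted p = 0.0403). Idh1, the cytosolic isocitrate dehydrogenase gene, was at 10.79 and 10.72 on Control, 10.10 and 10.21 on ALA, and 10.46 and 10.46 on SFA arrays. It fell by 0.60 on ALA (SE 0.12, adjusted p = 0.03). Both calls were lost when any 1 array was left out, at adjusted p from 0.0723 to 0.165 for Slc25a1 and from 0.0639 to 0.11 for Idh1. The mitochondrial malic enzyme gene Me2, unlike Me1, rose by 0.87 on ALA and by 0.77 on SFA (SE 0.13, adjusted p = 0.0115 and 0.0139), with adjusted p up to 0.0654 and 0.0844 when 1 array was left out. On SFA the pentose phosphate gene Pgd was at 0.77 (adjusted p = 0.018) and Pgls at -0.61 (adjusted p = 0.0221), and these reached 0.0969 and 0.117 with 1 array left out.

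Of 14 tested genes of malonyl use and elongation 0 rose and 0 fell in each comparison, with medians of -0.15 on ALA and 0.00 on SFA. Elovl3, an elongase gene named after its values were seen, was at 6.02 and 10.12 on Control, 3.89 and 3.79 on ALA, and 3.52 and 4.50 on SFA arrays. The Control arrays were far apart, and the 4 others were all lower. Its log2 differences were -4.23 on ALA and -4.06 on SFA (SE 1.13, adjusted p = 0.0678 and 0.0569). All its ALA and SFA values lay below the signal minimum of 5, so it was tested only through its Control arrays. The size of these differences is therefore uncertain. Of 9 tested desaturases and electron donors 1 fell on ALA and 0 changed on SFA. This was Cyb5b, a cytochrome b5 gene of the outer mitochondrial membrane, at 9.84 and 9.95 on Control, 8.98 and 8.81 on ALA, and 9.74 and 9.74 on SFA arrays. It fell by 0.99 on ALA (SE 0.13, adjusted p = 0.00773, at most 0.0487 with 1 array left out). The ALA minus SFA difference of Cyb5b was -0.84 (limma, adjusted p = 0.0393), a call lost when any 1 array was left out. The polyunsaturated desaturase genes Fads1 and Fads2 were at -0.32 and -0.20 on ALA and did not pass.

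Of 14 tested genes of acyl-CoA synthesis and glycerolipid assembly 1 rose on ALA and 2 on SFA, and 0 fell in either comparison. Lpin1, the phosphatidate phosphatase gene, was at 9.22 and 9.10 on Control, 10.90 and 10.76 on ALA, and 9.96 and 9.92 on SFA arrays, in 3 separate groups. Its ALA minus SFA difference was 0.89 (limma, adjusted p = 0.0392), a call lost with median centring (0.052) and when any 1 array was left out. It rose by 1.67 on ALA (SE 0.13, adjusted p = 0.00246, at most 0.0151 with 1 array left out) and by 0.78 on SFA (adjusted p = 0.0123, up to 0.0752). Agpat5, an acylglycerol phosphate acyltransferase gene, rose by 0.64 on SFA (adjusted p = 0.0439, up to 0.165 with 1 array left out).

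**Figure D5:**
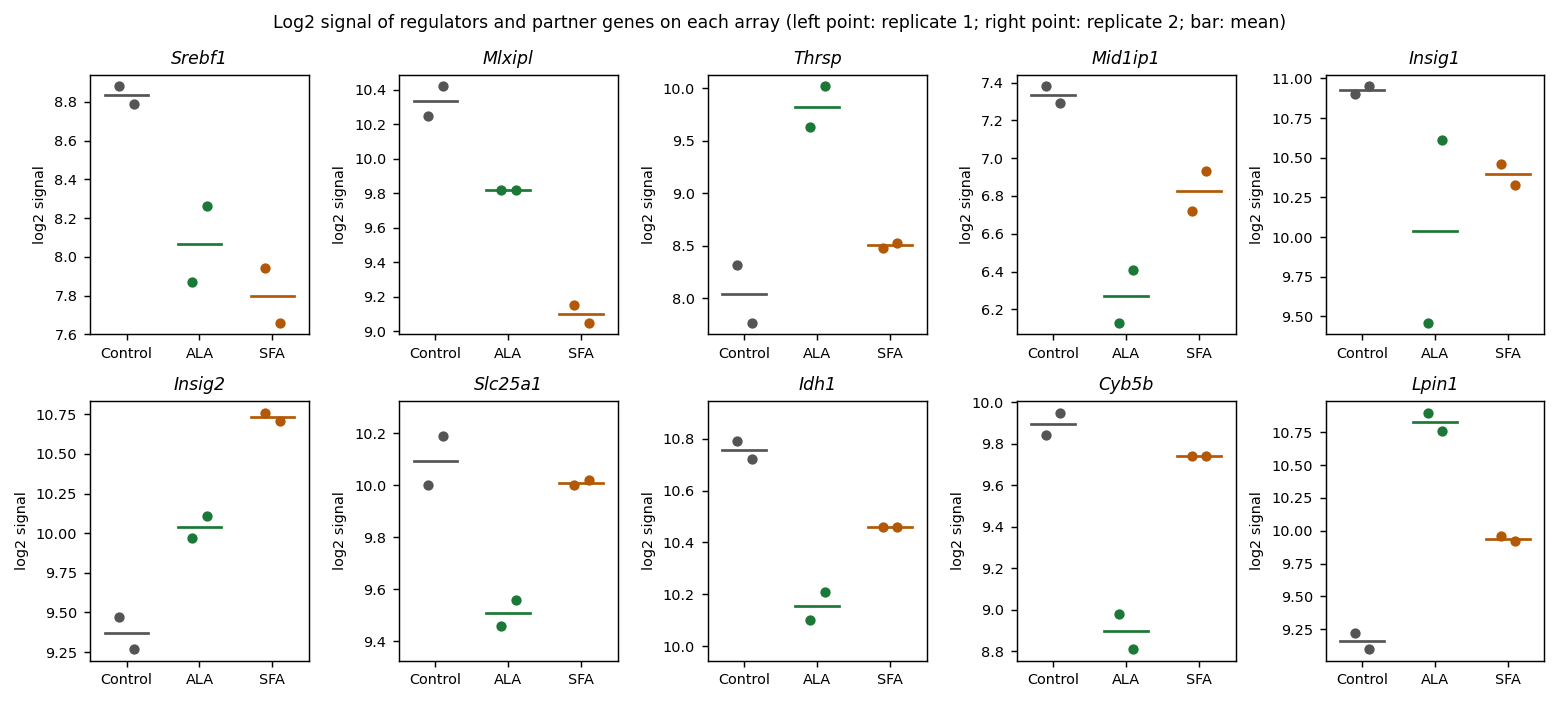
Log2 signal (y axis, own scale in each panel) of regulators and partner genes by maternal diet (x axis), with 1 point per array and a bar at the mean of 2. Srebf1 and Mlxipl are lower on both ALA and SFA than on Control, and Thrsp and Lpin1 are highest on ALA.

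Of 21 tested regulators of lipogenesis 2 rose and 2 fell on ALA, with a median of -0.03, and 1 rose and 2 fell on SFA, with a median of -0.05. Srebf1, the gene of the lipogenic factor SREBP, was at 8.88 and 8.79 on Control, 7.87 and 8.26 on ALA, and 7.94 and 7.66 on SFA arrays. It fell by 0.77 on ALA (SE 0.17, adjusted p = 0.0427) and by 1.03 on SFA (SE 0.17, adjusted p = 0.0138). The first call was lost when any 1 array was left out (adjusted p from 0.0508 to 0.156), and the second reached 0.0821.

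Mlxipl, the gene of the glucose-responsive factor ChREBP, was at 10.25 and 10.42 on Control, 9.82 and 9.82 on ALA, and 9.15 and 9.05 on SFA arrays. It fell by 1.23 on SFA (SE 0.13, adjusted p = 0.00369), a call kept when any 1 array was left out. On ALA it was at -0.51 and did not pass (adjusted p = 0.0543). The ALA difference passed with a signal minimum of 6 (0.0352) and with a trended, robust variance (0.0181). ALA and SFA differed by 0.72 (limma, adjusted p = 0.047), a call lost when any 1 array was left out. Median centring (adjusted p = 0.074), quantile normalization (0.0545) and cyclic loess (0.0506) lost that call too. Thrsp, a cofactor gene of lipogenesis, was at 8.32 and 7.77 on Control, 9.63 and 10.02 on ALA, and 8.48 and 8.53 on SFA arrays. Its ALA minus SFA difference was 1.32 (limma, adjusted p = 0.0431). This call was lost with quantile normalization (0.0545), with cyclic loess (0.0506) and when any 1 array was left out. Thrsp rose by 1.78 on ALA (SE 0.21, adjusted p = 0.00694), a call kept when any 1 array was left out. Its relative Mid1ip1, whose product is known to act on acetyl-CoA carboxylase, fell by 1.06 on ALA (SE 0.15, adjusted p = 0.0103, and 0.0533 without Control replicate 2). With the mean of its probes Mid1ip1 was at -0.57 and did not pass (adjusted p = 0.0757).

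Insig2, the gene of an endoplasmic reticulum protein that retains SREBP, was at 9.47 and 9.27 on Control, 9.97 and 10.11 on ALA, and 10.76 and 10.71 on SFA arrays. It rose by 1.37 on SFA (SE 0.13, adjusted p = 0.00317, at most 0.0338 with 1 array left out) and by 0.67 on ALA (adjusted p = 0.0304, from 0.0567 to 0.138). Insig1 was at 10.90 and 10.95 on Control, 9.46 and 10.61 on ALA, and 10.46 and 10.33 on SFA arrays. As for Scd1, its lowest array was ALA replicate 1. Its differences of -0.89 on ALA and -0.53 on SFA did not pass (adjusted p = 0.152 and 0.316). The SFA difference passed with only SFA and Control fitted (0.0455). Nr1h3, the gene of the oxysterol receptor LXR alpha, was at 0.26 on ALA and 0.07 on SFA and did not pass.

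Genes known to respond to feeding and fasting were read beside the members. Of 11 tested genes 2 rose on ALA, Ppargc1a at 1.63 and Tat at 0.66, and 2 rose on SFA, Pdk4 at 1.95 and Ppargc1a at 1.04, with 0 lower in either comparison. Each of these calls was lost without at least 1 array, with adjusted p up to 0.0527, 0.126, 0.14 and 0.122. The medians of this list were 0.35 on ALA and 0.14 on SFA. The list mixes genes of the fed and of the fasted state, so these medians do not read a feeding state. The labels give no feeding state or hour for the pups, and its part in the results was not tested.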

How the data were processed

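Liver RNA was read on 6 Affymetrix arrays, 2 per maternal diet. The authors deposited log2 signals: the values run from 1.98 to 13.1, and the base is read from that range. RMA, which corrects, normalizes and summarizes probe signals, and the Partek software, version 6.6, are named in the submitters' processing notes. Other settings are not given in the sources used here. The arrays' number limits the precision.

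Of 35556 probes, 21789 had 1 symbol in the platform annotation, 1621 several and 12146 none listed. Of the 21789, 21698 were found by Entrez ID in RefSeq's GRCm38.p6 table and 0 symbols changed. The brightest probe stood for each of 19938 genes, and 10977 with a mean log2 signal of at least 5 were tested. A model with a mean per diet was fitted with limma 3.58.1 in R 4.3.3 (lmFit, eBayes), with 3 residual degrees of freedom and 4.05 prior degrees of freedom, and p-values, two-sided, were adjusted by Benjamini-Hochberg over all tested genes. An exact permutation test of 2 arrays against 2 cannot go below p = 0.333 and was not used. Errors are SEs with n = 2 arrays per group. Same-numbered arrays did not deviate together (r = -0.0302, -0.00402 and 0.0226 across genes), so the numbers were not taken to pair them.

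The members, lists and tests were chosen with earlier results of these data known. The 10 members are named in every comparison. From each list the called genes are named, at most 4 per comparison, with Srebf1, Mlxipl, Thrsp, Insig1 and Nr1h3 always, and for Fasn, Scd1 and Scd2 the 3 most alike non-members, passing over gene models without a common name. Alternatives changed the signal minimum, probes, normalization, variance, groups fitted, a replicate block and single arrays. The use of second probes was added after seeing the data. Promoters came from RefSeq.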

Additional observations from a re-analysis of the deposited data

How the results depend on the processing

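With 2 arrays per group the calls rest on few degrees of freedom. Leaving out 1 array gave 1 to 3 called members for ALA against Control (4 with all arrays), 0 to 1 for SFA against Control (1), 0 to 1 for ALA against SFA (1) and 2 to 3 for the F test (4). Calls over all 10977 tested genes fell too, to 267 to 475 for ALA against Control (871), 245 to 1428 for SFA against Control (1512) and 0 to 36 for ALA against SFA (168). The trended, robust variance called 2 for SFA against Control, with 15.9% of all tested genes. For ALA against SFA the replicate block called 0 members. The fit of only those groups also called 0 members, and it called 0.100% of all tested genes. The replicate block called 0 of all tested genes there, and it changed no other call of a member. Acaca on ALA against Control (0.18) was at -0.03 with the mean of its probes and at -0.23 with its other probe. With 1 array left out it ranged from -0.05 to 0.40, and Acacb in that comparison from -0.28 to 0.30. Against SFA, ALA values ranged from -0.90 to 0.08 for Fasn, -0.56 to 0.02 for Acacb, -0.17 to 0.05 for Acly and -0.94 to 0.21 for Insig1, and Nr1h3 on SFA against Control from -0.08 to 0.23. None of these was called with all arrays, and the cause was not tested. Of 25 called results of the other lists 5 kept their call in every alternative. These were Cyb5b, Lpin1 and Thrsp on ALA and Insig2 and Mlxipl on SFA, each against Control.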
